A study of Mus musculus with 2 samples.

Results

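The genes described here are 10 genes that mark young neurons and dividing cells, read in frontal cortex of adult mice. They are the 10 of 43346 annotated genes whose identifiers, without version, carry the symbols Dcx, Sox4, Sox11, Cd24a, Igfbpl1, Draxin, Dpysl5, Mki67, Top2a and Cdk1 in GENCODE M21, and all 10 were found in both libraries with 33 transcripts. The last 3 of these names are proliferation genes, and the other 7 mark neuroblasts and immature neurons. The tissue was frontal cortex from C57BL/6J animals at 8 weeks of age, labelled as a pool of males and females from mixed-sex litters, with no treatment and no altered allele named. Both samples belong to this 1 group and carry the same donor label, so there is no contrast between conditions. Polyadenylated RNA above 200 nt was sequenced from each with stranded paired reads. Levels are given in TPM, the share of transcripts after adjustment for length and a pair of values stands for replicates 1 and 2.

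Neuroblasts are young, still migrating neurons. In adult rodents they arise next to the lateral ventricle and travel along the rostral migratory stream to the olfactory bulb, and most neurons of the cortex itself are made before birth. Doublecortin, the SoxC transcription factors Sox4 and Sox11, and the surface protein Cd24a are widely used to mark that stage. Mki67, Top2a and Cdk1 belong to the programme of the G2 and M phases of the cell cycle. In resting cells that programme is held off by a repressor complex that sits on a short promoter element called CHR, and in cycling cells it is driven in part through CCAAT boxes bound by NF-Y. Most cortical cells are postmitotic, and the dividing ones known in adult cortex are mainly glial precursors, along with some microglia and vessel cells.

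The promoters of the proliferation genes are shown because these genes and the other G2 and M phase genes lay together at low levels in these libraries. Each window runs from 250 bases before to 50 after the annotated start (RefSeq, GRCm38.p6) and is written 5′ to 3′ on the strand of the gene. Capitals mark 3 motifs on either strand. The first is the usual CHR form, TTTGAA. The next, a CHR variant that reads the same on both strands, is TTCGAA. The last is the box bound by NF-Y, CCAAT. The motifs share no bases in these windows. The Mki67 window is chr7:135716330-135716629 (minus strand), the Top2a window is chr11:99024140-99024439 (minus strand) and the Cdk1 window is chr10:69352863-69353162 (minus strand).
Mki67: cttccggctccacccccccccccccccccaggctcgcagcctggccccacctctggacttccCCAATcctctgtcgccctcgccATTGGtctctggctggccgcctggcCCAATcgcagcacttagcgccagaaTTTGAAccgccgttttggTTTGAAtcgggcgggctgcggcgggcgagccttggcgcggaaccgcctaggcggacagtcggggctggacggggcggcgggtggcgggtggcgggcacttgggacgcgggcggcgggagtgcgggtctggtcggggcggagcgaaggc
Top2a: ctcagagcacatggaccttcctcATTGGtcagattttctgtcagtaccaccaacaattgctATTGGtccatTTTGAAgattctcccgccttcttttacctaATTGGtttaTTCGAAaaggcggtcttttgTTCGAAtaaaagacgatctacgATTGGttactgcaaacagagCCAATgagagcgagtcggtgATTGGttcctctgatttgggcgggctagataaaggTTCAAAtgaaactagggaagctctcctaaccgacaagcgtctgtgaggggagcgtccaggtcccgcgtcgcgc
Cdk1: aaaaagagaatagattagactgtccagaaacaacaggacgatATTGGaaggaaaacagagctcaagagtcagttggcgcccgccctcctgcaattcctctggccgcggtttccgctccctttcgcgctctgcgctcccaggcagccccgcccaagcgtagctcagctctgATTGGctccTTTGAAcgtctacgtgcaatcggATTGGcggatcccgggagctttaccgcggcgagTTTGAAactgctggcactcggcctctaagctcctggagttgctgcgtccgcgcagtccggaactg

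Mki67 had 2 TTTGAA and 3 CCAAT matches, Cdk1 likewise had 2 and 3, and Top2a had 2 TTTGAA, 2 TTCGAA and 6 CCAAT matches. All 3 promoters therefore held a CHR match together with CCAAT, as did 18 of the 24 other G2 and M phase genes with a window (75%), 2 of 18 S phase genes (11.1%) and 2328 of all 27025 genes with a window (8.61%). Taken singly, TTTGAA was in the windows of 20.2% of all genes, TTCGAA in 1.80% and CCAAT in 41.1%. Of the neuroblast genes, 5 had a window, and Sox11 alone among them held a CHR match beside CCAAT, while Sox4 held 4 CCAAT matches and no CHR match, and Dcx held CCAAT alone. These matches describe letters in a window and were not tied to binding or to a level.

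Expected counts, the estimated numbers of fragments, summed to 106084891 in replicate 1 and 90476207 in replicate 2. The 10 genes together took 42511 and 36423 of these counts. The libraries stand apart in sex-linked transcripts although both are labelled as pools of both sexes: Xist had 107 counts in replicate 1 and 77696 in replicate 2, and 4 Y-linked genes summed to 18162 and 8 counts. Levels of the 10 genes are therefore given for each library, and sex cannot be told apart from the other differences between the replicates. The cortical genes Slc17a7 (447 and 401 TPM), Neurod6 (21.9 and 19.3 TPM) and Tbr1 (24.5 and 26.2 TPM) were present, and so were defining genes of the olfactory bulb, among them Doc2g (149 and 161 TPM) and Th (68.9 and 66.6 TPM). In bulk tissue, fewer cells of a type and less RNA per cell cannot be told apart.

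Of the 7 neuroblast genes, 6 reached 1 TPM in both libraries and Draxin did not, and the 3 proliferation genes stood between 0.28 and 1.53 TPM. The 7 neuroblast genes summed to 103 and 96.2 TPM in replicates 1 and 2, with medians of 19.9 and 17.5 TPM. The 3 proliferation genes summed to 2.36 and 2.88 TPM, with medians of 1.02 and 1.05 TPM. In both libraries 8 of the 10 genes reached 1 TPM, against a background of 60.7% of 21474 protein-coding genes. Over protein-coding transcripts alone the count was 6 of 10, all of them neuroblast genes, against a background of 59.1%.

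Dcx encodes doublecortin, a protein that binds and bundles microtubules in migrating neurons. It was the most abundant of the 10 genes, at 25.6 and 25.9 TPM in replicates 1 and 2, from 17569 and 15967 counts (ENSMUSG00000031285.10, mm10, chromosome X, 143855842 to 143933311, minus strand). The libraries nearly coincided (25.7 ± 0.156 TPM, SD, n = 2), and 80.4% of protein-coding genes had a lower mean level. Dpysl5, also called CRMP5, belongs to the collapsin response mediator proteins that link guidance cues to the cytoskeleton of growing neurites. It stood at 19.9 and 19.0 TPM in replicates 1 and 2, from 7447 and 6559 counts (ENSMUSG00000029168.10, chromosome 5, 30711564 to 30799375, plus strand), and the deposited intervals overlapped.

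The SoxC factors Sox4 and Sox11 switch on genes of neuronal differentiation. Sox4 stood at 21.5 and 17.5 TPM in replicates 1 and 2, from 8163 and 5998 counts (ENSMUSG00000076431.4, chromosome 13, 28948919 to 28953713, minus strand). Its deposited intervals, 20.9 to 21.8 TPM and 16.9 to 17.8 TPM, did not overlap, so replicate 1 was higher on this scale. Sox11 was lower, at 6.44 and 5.82 TPM in replicates 1 and 2, from 4315 and 3531 counts (ENSMUSG00000063632.6, chromosome 12, 27334264 to 27342574, minus strand). Both are genes of a single exon with 1 listed transcript each. A noncoding gene on the opposite strand of Sox4, Gm26735, had 1.24% and 1.08% as many counts as Sox4.

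Among the surface and secreted proteins, Cd24a, a heavily glycosylated anchored protein of neuroblasts that ependymal and blood cells also carry, stood second in the whole order. It had 21.7 and 20.8 TPM in replicates 1 and 2, from 2888 and 2493 counts (ENSMUSG00000047139.8, chromosome 10, 43578284 to 43584265, plus strand). Igfbpl1, a secreted protein related to the binding proteins of insulin-like growth factors, stood at 6.78 and 6.77 TPM in replicates 1 and 2, from 1318 and 1192 counts (ENSMUSG00000035551.6, chromosome 4, 45809468 to 45826923, minus strand). The libraries agreed within 0.01 TPM for Igfbpl1, whereas its scaled count was lower in replicate 1. Draxin, a secreted repellent for growing axons that binds the netrin receptor Dcc, was the low member of the group. It stood at 0.61 and 0.48 TPM in replicates 1 and 2, from 253 and 179 counts (ENSMUSG00000029005.4, chromosome 4, 148098437 to 148130698, minus strand). Draxin overlaps Mad2l2 on the opposite strand, a gene with 1026 and 883 counts; the reads are stranded, but how strand was used in counting is not given in the sources used here.

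Of the proliferation genes, Mki67 encodes Ki-67, the coat protein of mitotic chromosomes, and was the lowest of all 10. It stood at 0.28 and 0.30 TPM in replicates 1 and 2, from 231 and 219 counts (ENSMUSG00000031004.7, chromosome 7, 135689784 to 135716361, minus strand), and 31.6% of protein-coding genes lay below it. Top2a, the topoisomerase that untangles replicated DNA, stood at 1.06 and 1.53 TPM in replicates 1 and 2, from 255 and 220 counts (ENSMUSG00000020914.13, chromosome 11, 98992943 to 99024189, minus strand). Its TPM was lower and its unscaled count higher in replicate 1, and the deposited effective lengths of the gene were 2906 and 1914 nt in replicates 1 and 2. Cdk1, the kinase that starts mitosis, stood at 1.02 and 1.05 TPM in replicates 1 and 2, from 72 and 65 counts (ENSMUSG00000019942.8, chromosome 10, 69335146 to 69352938, minus strand). Mki67 had more counts than Cdk1 in both libraries and, being a much longer mRNA, a lower TPM.

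**Figure D1:**
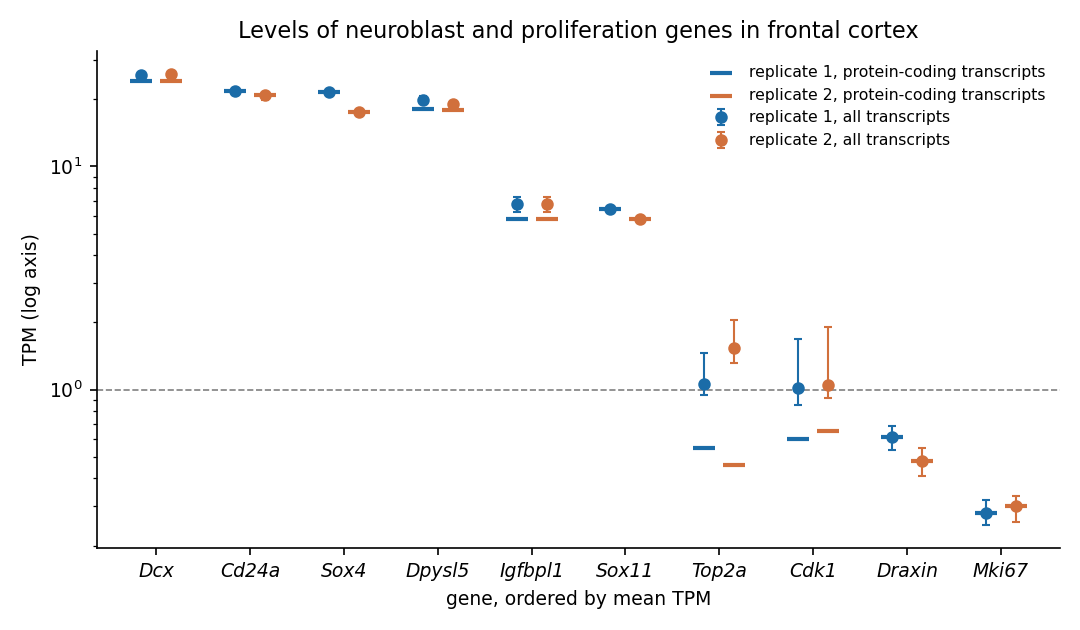
TPM of each gene (log axis) in replicate 1 (blue, left) and replicate 2 (orange, right), with genes ordered by mean level. Points are all transcripts with the deposited interval as the bar, dashes are protein-coding transcripts alone, and the grey line marks 1 TPM. Points for Top2a and Cdk1 lie above the line, whereas their dashes lie between 0.46 and 0.65 TPM.

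Dcx exceeded Mki67 by 6.47 ± 0.06 on the log2 scale of TPM (SD, n = 2), a fold of 88.8. By mean TPM the order was Dcx, Cd24a, Sox4, Dpysl5, Igfbpl1, Sox11, Top2a, Cdk1, Draxin and Mki67. Neighbours were called apart when their log2 difference had 1 sign in both libraries, its mean exceeded its SD and the deposited intervals did not overlap in either library. By that rule 5 of 9 neighbours were apart, namely Dcx above Cd24a, Dpysl5 above Igfbpl1, Sox11 above Top2a, Cdk1 above Draxin and Draxin above Mki67. Cd24a and Sox4, Sox4 and Dpysl5, and Top2a and Cdk1 did not differ beyond their SD. Igfbpl1 lay above Sox11 by a log2 difference of 0.15 ± 0.10, but their deposited intervals overlapped in replicate 1. Sox4 was above Dpysl5 in replicate 1 and below it in replicate 2. Over protein-coding transcripts alone, Cdk1 (0.60 and 0.65 TPM) was level with Draxin (0.61 and 0.48 TPM) in replicate 1 and above it in replicate 2. An exact sign-flip test over 2 libraries cannot go below p = 0.5, so no p-value is given for any of these differences.

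The TPM of Top2a and Cdk1 was assigned in part to short noncoding transcripts. Top2a-201, the coding transcript of 5221 nt, took 52.1% of the TPM of Top2a in replicate 1 and 29.7% in replicate 2, yet 89.8% and 77.8% of its counts (229 and 171). Top2a-207, a processed transcript of 803 nt, took 17.3% of the TPM in replicate 1 and 57.01% in replicate 2, from 9.05 and 38.5 counts. A further processed transcript, Top2a-203, took 28.4% and 12.6%. Over coding transcripts alone Top2a stood at 0.55 and 0.46 TPM in replicates 1 and 2, so the library with the higher value changed. By TPM, a mean share under 50% in coding transcripts was found for Top2a, 1 of the 10 genes. It was also found for 8.99% of the protein-coding genes whose mean reached 1 TPM.

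Cdk1 had a similar makeup. Its coding transcript Cdk1-202 took 51.7% of TPM in replicate 1 and 56.5% in replicate 2. By posterior means, a second deposited estimate, Cdk1-202 took 39.9% and 39.1%. The other coding transcripts took 6.00% and 4.54% (Cdk1-201) and 3.75% and 5.55% (Cdk1-207) by that estimate. Cdk1-204, a retained intron transcript of 475 nt, took 33.1% and 38.4% from 7.44 and 7.85 counts. The coding transcripts of Cdk1 summed to 0.60 and 0.65 TPM in replicates 1 and 2. Mki67 has 1 listed transcript, so no such split applies to it. Summed over coding transcripts, the proliferation genes stood at 1.43 and 1.41 TPM, and none of the 3 reached 1 TPM.

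Most neuroblast genes were carried by 1 coding transcript. Dcx-201, a transcript of 9074 nt, took 91.2% of the TPM of Dcx in replicate 1 and 90.6% in replicate 2. Igfbpl1-201 took 85.5% and 85.9%, and the rest went to Igfbpl1-202, a processed transcript of 747 nt with 44.0 and 38.1 counts. Dpysl5 differed more between libraries: Dpysl5-203 took 85.4% in replicate 1 and 75.2% in replicate 2, and Dpysl5-201, also coding, took 4.56% and 17.3%. Those isoforms differ little in length (5191 and 5022 nt), and the split of shared reads between them is an estimate. Sox4, Sox11, Cd24a, Draxin and Mki67, 5 of the 10 genes, have 1 listed transcript.

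**Figure D2:**
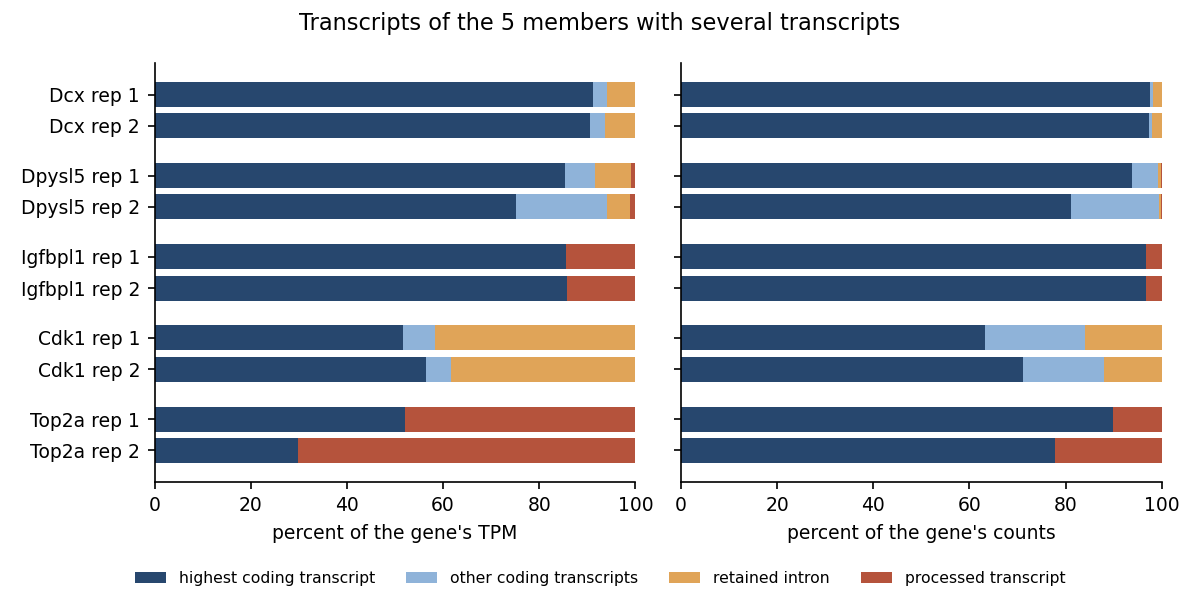
Percent of a gene's TPM (left panel) and of its counts (right panel) taken by the most abundant coding transcript (dark blue), other coding transcripts (light blue), retained introns (yellow) and processed transcripts (red), for the 5 genes with several transcripts in replicates 1 and 2. For Top2a the coding share is 52.1% and 29.7% of TPM but 89.8% and 77.8% of counts.

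Between the replicates the 10 genes differed little, as did most protein-coding genes with 100 or more counts. Each ratio divides replicate 1 by replicate 2 on the log2 scale, after the counts were scaled by TMM, a method that centres the bulk of genes, and has an exact 95% counting interval. None of the 10 genes passed a fold of 1.5, against a background of 3.19% of 14410 protein-coding genes with 100 or more counts (1.54% higher in replicate 1 and 1.65% higher in replicate 2). The interval left out equality for 4 of 10 genes, against a background of 54.2%. Of these, Sox4 was higher in replicate 1 (0.16, interval 0.12 to 0.21). Dcx (-0.14, interval -0.17 to -0.11), Dpysl5 (-0.10, interval -0.15 to -0.05) and Igfbpl1 (-0.14, interval -0.25 to -0.02) were lower in replicate 1.

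The other ratios ran from -0.20 for Mki67 to 0.22 for Draxin, and 3 of the 10 genes were above 0. All 3 proliferation genes were below 0, with intervals that include it: Mki67 -0.20 (-0.48 to 0.07), Top2a -0.07 (-0.33 to 0.20) and Cdk1 -0.13 (-0.64 to 0.37), although from TPM of coding transcripts alone Top2a was at 0.26. On the TPM scale the median ratio of protein-coding genes whose mean reached 1 TPM was itself 0.13, and the median of the 10 genes was 0.03 there, against -0.08 on the scaled counts. The signs for Igfbpl1, Dpysl5 and Cd24a turn positive on the TPM scale, at 0.00213, 0.0669 and 0.0624. Dcx is X-linked; the 503 X-linked protein-coding genes with 100 or more counts had a median ratio of 0.06, and 13.1% of them lay below Dcx.

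**Figure D3:**
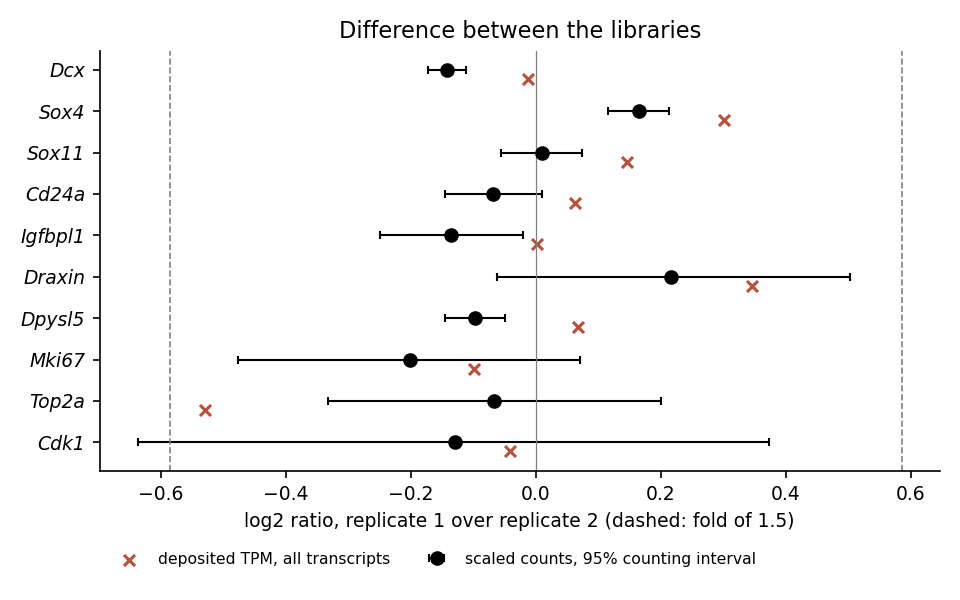
Log2 ratio of replicate 1 over replicate 2 for each gene from scaled counts with exact 95% counting intervals (black) and from deposited TPM (red crosses). Dashed lines mark a fold of 1.5; every black point lies between -0.20 and 0.22, inside them.

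Set against paralogs and partners in the same library, the genes were mostly the lower of the pair. Of 20 pairs with both genes in the files, 18 had the listed gene below its partner, and 19 were beyond the spread by the rule used for the order. Values are log2 ratios of TPM within a library, mean ± SD over 2 libraries. Dcx was below Dclk1, a kinase with doublecortin domains that adult neurons also make, by a log2 ratio of -2.30 ± 0.13 (25.6 and 25.9 TPM against 135 and 120 TPM), and below Dclk2 by -1.05 ± 0.10. Dcx against Rbfox3, the mature neuron protein NeuN, gave -1.18 ± 0.09. Without the length adjustment, as CPM (counts scaled to the library total alone), the Rbfox3 ratio turned to 0.49 and the Dclk2 ratio to -0.13. The deposited intervals are of TPM, so CPM pairs were called on sign and SD alone. By that looser rule the Dclk2 ratio was not beyond the spread, and 16 pairs were. Cdk1 over Cdk2, which failed only the interval condition on TPM, was among the 16, so 16 and 19 are not like counts.

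Sox4 was the exception in direction. It was above Sox11 by 1.66 ± 0.11 and above Sox12, the remaining SoxC factor, by 0.73 ± 0.13. Sox11 was below Sox12 by -0.93 ± 0.02, and that ratio was 0.00461 as CPM. Among the collapsin response mediators, Dpysl5 was the lowest of those compared: -2.65 ± 0.01 against Crmp1, -2.01 ± 0.03 against Dpysl2, -0.70 ± 0.06 against Dpysl4 and -0.40 ± 0.11 against Dpysl3. The Dpysl4 ratio was -0.00724 as CPM and -0.29 over coding transcripts. Igfbpl1 against Igfbp7, a binding protein abundant in vessel cells, gave -2.88 ± 0.07. Draxin was below its receptor Dcc (-1.29 ± 0.05), below netrin-1, Ntn1 (-2.51 ± 0.17), and below the netrin receptor neogenin, Neo1 (-4.78 ± 0.06).

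The proliferation genes lay far below most of the related genes they were set against. Top2a was below Top2b, the topoisomerase of postmitotic cells, by a log2 ratio of -4.19 ± 0.55 (1.06 and 1.53 TPM against 25.5 and 21.4 TPM), and by -5.46 ± 0.02 over coding transcripts. Cdk1 was below Cdk5, the kinase that acts in postmitotic neurons, by -6.14 ± 0.09 (1.02 and 1.05 TPM against 75.0 and 70.8 TPM). Cdk1 was also below Cdk4, the kinase of the G1 phase, by -6.29 ± 0.17, or -5.04 over coding transcripts. Against Cdk2 the ratio was -1.12 ± 0.32. That pair had 1 sign in both libraries and a mean beyond its SD, but it failed the condition on the deposited intervals. Over coding transcripts the ratio was -1.85, and the interval condition was not applied there. Mki67 was below Pcna, a clamp of DNA replication and repair, by -6.92 ± 0.20 (0.28 and 0.30 TPM against 37.5 and 33.0 TPM). Mki67 was below Top2a by -2.14 ± 0.30, which shrank to -0.80 over coding transcripts and to -0.07 as CPM.

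**Figure D4:**
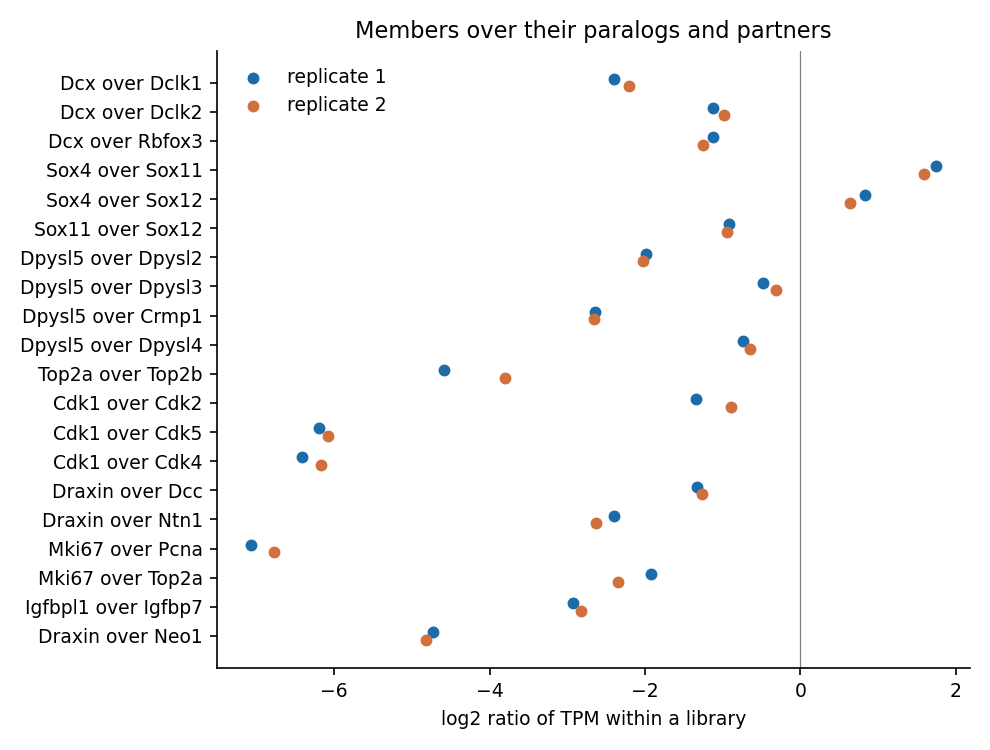
Log2 ratio of TPM of each gene over its paralog or partner within replicate 1 (blue) and replicate 2 (orange). Points for Sox4 over Sox11 and over Sox12 lie right of 0, and those for the remaining 18 pairs lie left of it.

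Other genes listed for young neurons were present throughout. All 25 of these neuroblast and immature neuron genes reached 1 TPM in both libraries, against a background of 60.7% of protein-coding genes. That background applies to the later counts of list genes as well. The median of the 25 was 71.9 TPM, against a median of 4.10 TPM over all protein-coding genes. The most abundant were the tubulin Tubb2a (918 and 861 TPM), the microtubule regulator Stmn1 (527 and 481 TPM) and the tubulin Tubb3 (345 and 337 TPM), which mature neurons also make. The least abundant was St8sia2, the enzyme that adds polysialic acid to Ncam1 in migrating neurons, at 1.44 and 1.12 TPM. Next above it were St8sia4 (3.51 and 2.79 TPM) and Prokr2 (3.50 and 3.49 TPM). The part of young neurons in the levels of the 25 genes was not tested. None of the 25 passed the fold of 1.5 between libraries, against a background of 3.19% of protein-coding genes with 100 or more counts.

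All 13 transcription factors of the olfactory bulb interneuron lineage also reached 1 TPM in both libraries, against the background of 60.7%, with a median of 22.2 TPM. Meis2 (193 and 223 TPM), Dlx1 (93.2 and 97.8 TPM) and Zic1 (58.8 and 70.6 TPM) led that list, and Sp9 was its lowest gene at 8.63 and 10.1 TPM. Over coding transcripts alone Meis2 stood at 123.7 and 123.9 TPM, Dlx1 at 44.7 and 40.3 TPM and Zic1 at 27.4 and 27.2 TPM, and Tshz1 (39.2 and 42.0 TPM) then stood above Zic1. In 2 of the 13 the scaled count was higher in replicate 1. The list of neural progenitor genes had 17 of 18 at 1 TPM, led by Fabp7 (296 and 232 TPM), Gfap (104 and 98.8 TPM) and Vim (70.1 and 61.5 TPM, or 45.6 and 34.0 TPM over coding transcripts), which astrocytes share. Its lowest gene was Neurog2, a proneural factor, at 0.32 and 0.53 TPM. Of the netrin and Draxin receptors and ligands, 9 of 9 reached 1 TPM, from Unc5a (26.7 and 23.5 TPM), Neo1 (16.2 and 13.6 TPM) and Lrp6 (10.9 and 9.80 TPM) down to Dcc (1.53 and 1.15 TPM). Draxin itself lay below all 9.

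Among cell cycle genes, those of G2 and M phase had a lower median level than those of S phase. Of 30 further G2 and M phase genes, 13 reached 1 TPM in both libraries (9 over coding transcripts), against the backgrounds of 60.7% and 59.1% of protein-coding genes, with a median of 0.945 TPM and a range of 0.12 to 4.45 TPM. They were led by the spindle protein Tacc3 (4.77 and 4.13 TPM), the chromatin protein Hmgb2 (3.51 and 3.17 TPM) and anillin, Anln (2.99 TPM in each library), which oligodendrocytes are known to make. Cenpf, a kinetochore protein, was the lowest at 0.13 and 0.11 TPM. The proliferation genes Top2a, Cdk1 and Mki67 all lay within that range. Of 22 S phase genes, 16 reached 1 TPM (13 over coding transcripts, a share equal to the background), with a median of 2.07 TPM, led by Pcna (37.5 and 33.0 TPM), the histone mRNA binding protein Slbp (17.0 and 14.1 TPM) and the helicase subunit Mcm7 (15.6 and 14.2 TPM). The licensing factor Cdc6 was their lowest at 0.32 and 0.33 TPM.

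A further list of 16 genes holds inhibitors of the cycle, genes active in postmitotic cells, and the D cyclins and kinases of G1 phase. Of these, 15 reached 1 TPM, against the background of 60.7%, with a median of 17.0 TPM, above that of the G2 and M phase genes. Cdk5r1, the activator p35 of Cdk5, stood at 134 and 119 TPM, Cdk4 at 86.9 and 75.8 TPM (21.5 and 19.6 TPM over coding transcripts) and Cdk5 at 75.0 and 70.8 TPM. Cdk6 was the lowest at 0.46 and 0.45 TPM. The 12 mature neuron genes had a median of 202 TPM, led by Snap25 (1313 and 1348 TPM), Camk2a (705 and 709 TPM) and Gad1 (468 and 631 TPM), with Neurod6 lowest at 21.9 and 19.3 TPM.

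**Figure D5:**
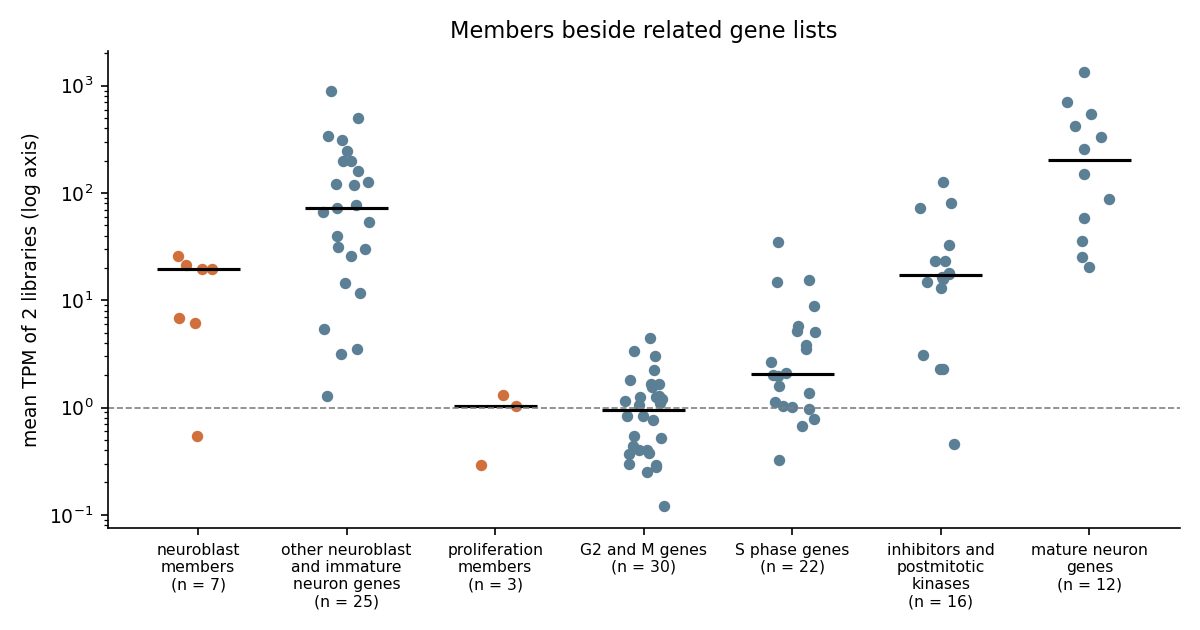
Mean TPM over 2 libraries (log axis) of each gene in the neuroblast and proliferation groups (orange) and in 5 related lists (blue-grey); black bars are medians of the gene means and the dashed line marks 1 TPM. The median bar is at 19.4 TPM for the neuroblast genes and at 1.04 TPM for the proliferation genes, next to 0.945 TPM for the G2 and M list.

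Genes of other cell types that can carry these transcripts were measured in the same libraries, where 60.7% of protein-coding genes reached 1 TPM. Of the olfactory bulb genes, 12 of 12 reached 1 TPM, with sums of 899 and 901 TPM. Pcp4l1 (269 and 253 TPM), Calb2 (190 and 207 TPM) and Doc2g led them, and the dopamine transporter gene Slc6a3 was lowest at 2.05 and 1.72 TPM. Of the ependymal genes, 4 of 8 reached 1 TPM, with sums of 11.4 and 15.5 TPM; Rarres2 (4.18 and 7.62 TPM), Foxj1 (2.36 and 2.76 TPM) and Mia (2.27 and 2.17 TPM) led them, and Tmem212 was listed at 0 in replicate 1 and at 0.05 TPM in replicate 2. The part of bulb and ependymal tissue in the levels of Dcx, Sox11 and Cd24a was not tested.

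Oligodendrocyte precursor and premyelinating genes were all present (12 of 12, sums of 233 and 243 TPM), and the sums cover both stages. Olig1 (84.3 and 94.0 TPM), Bcas1 (45.5 and 51.4 TPM) and Sox10 (27.99 and 29.3 TPM) led them, with Enpp6 lowest at 2.07 and 2.59 TPM. Pdgfra stood at 11.7 and 8.90 TPM and Cspg4 at 3.98 and 3.08 TPM. Endothelial genes were present as well (10 of 10, sums of 305 and 298 TPM), from Ly6c1 (90.5 and 124 TPM), Itm2a (66.3 and 49.1 TPM) and Cldn5 (55.5 and 51.8 TPM) down to Kdr (5.06 and 3.59 TPM). Astrocyte genes reached 1 TPM in 8 of 8 cases, with Aldoc (674 and 703 TPM), Slc1a2 (295 and 289 TPM) and Slc1a3 (237 and 187 TPM) on top and Aldh1l1 (26.6 and 26.9 TPM) at the bottom.

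Microglia genes (11 of 11, sums of 418 and 288 TPM) shared a direction: all 11 had higher scaled counts in replicate 1 (median of 0.41 for the log2 ratio). None of the 11 passed the fold of 1.5, against a background of 3.19% of protein-coding genes with 100 or more counts. For the same ratio the intervals of the 3 proliferation genes all include 0. C1qb (66.8 and 49.4 TPM) and Ctss (49.1 and 35.6 TPM) were among the most abundant microglia genes, and Tmem119 was lowest at 11.7 and 8.64 TPM. Blood cell genes went the other way. Of 7 red cell genes 1 had a higher scaled count in replicate 1, with Hba-a2 (229 and 291 TPM) and Hbb-bs (175 and 218 TPM) among the most abundant and Alas2 (0.95 and 1.42 TPM) lowest; copies of the globin genes share reads. Of 9 neutrophil and marrow genes 2 reached 1 TPM, with sums of 3.18 and 7.81 TPM; S100a9 (1.03 and 3.28 TPM), S100a8 (1.44 and 2.81 TPM) and Camp (0.15 and 0.42 TPM) led them, Ltf was lowest at 0.03 and 0.05 TPM, and Mpo and Elane were listed at 0 in replicate 1. The part of these cells in the levels of Cd24a, Mki67, Top2a and Cdk1 was not tested.

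The protein-coding genes nearest to Dcx in log2(TPM + 0.01) over the 2 libraries were Jagn1 (25.6 and 26.1 TPM), Tmem91 (25.8 and 25.6 TPM) and 1700047I17Rik2 (25.6 and 26.2 TPM), at distances of 0.0128 to 0.0205. Those nearest to Mki67 were Tspan10 (0.28 and 0.30 TPM), Batf2 (0.28 and 0.31 TPM) and Hist1h2bk (0.28 and 0.31 TPM). The Mki67 value rests on 231 and 219 counts, whereas Tspan10 had 34 and 33, Batf2 had 26 and 25, and Hist1h2bk had 6.22 and 6.05. With 2 libraries this likeness is one of level alone.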

How the data were processed

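Gene and transcript quantifications of 2 libraries of frontal cortex were used as the authors deposited them, aligned to mm10 and annotated with release M4 per the text files beside them; the program that aligned or quantified the reads is not given in the sources used here. Per library these deposited tables give expected counts of fragments, TPM (all entries, spike-ins among them), FPKM and isoform percent; deposited interval bounds of TPM, whose level is not stated, posterior SDs and effective lengths were used as scores. Symbols, biotypes and coordinates came from GENCODE M21 (mm10).

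Counts without spike-ins were rounded for TMM factors (1.02 and 0.982, edgeR 4.0.16, R 4.3.3, prior count of 2), and DESeq2 1.42.0 size factors were an alternative. Total expected counts were 106084891 and 90476207. Counting intervals are exact conditional binomial at 95% and cover counting error only, since PCR copies cannot be told from separate molecules. The ratio step was tested on simulated data. Promoters came from RefSeq (GRCm38.p6), with windows for 8 of the 10 genes.

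The members, lists and pairs were chosen with earlier results of these data known. Named genes are the 10 members, their partners, the 3 highest and the lowest gene of each list by mean TPM and the 3 genes nearest to Dcx and Mki67; Doc2g, Th and cortical genes in the account of the libraries, Tshz1, and genes named in the closing section, were chosen after their values were seen. Some genes that this rule names are not reported here. Genes of the list of pairs without a match (1 of 21 pairs) were not analysed here.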

Additional observations from a re-analysis of the deposited data

How the results depend on the processing

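No paired analysis was possible because the study has 1 group. Recalculated under the alternatives, summary values stayed within their limits in 59 cases and left them in 16. The median of the 7 neuroblast genes was 18.7 TPM, 15.0 as FPKM and 37.8 after rescaling to nuclear protein-coding genes. That of the 3 proliferation genes was 1.04 TPM, 1.29 by posterior means, 0.83 as FPKM, 2.10 after rescaling and 0.505 over protein-coding transcripts, an alternative chosen after seeing the data. The median replicate ratio of -0.08 became 0.0323 from TPM. The 460 genes past the fold became 1337 with at least 10 counts, 2428 with at least 1 count, 285 where the mean reached 1 TPM and 149 at a fold of 2. The count of 5 neighbours apart was 6 to 8 in a single library, where separation rests on the deposited intervals alone. Of 16 S phase genes 5 passed at 5 TPM; the 13 G2 and M phase genes became 30 at 0.1 TPM, 0 at 5 TPM and 8 at an FPKM of 1. Of single genes, pairs and transcripts, 5 called values reversed: the replicate ratios of Igfbpl1 (0.00213 from TPM) and Dpysl5 (0.0669 from TPM, 0.0264 over protein-coding transcripts), and, as CPM, Dcx over Rbfox3 (0.49) and Sox11 over Sox12 (0.00461). The CPM values drop the length adjustment by construction; the cause of the others was not tested. Depth limits Cdk1 most, with 72 and 65 counts.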

Other observations

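Of the 203 genes of the related lists with 100 or more counts, 5 passed the fold of 1.5 between the libraries (2.46%), against 3.19% of all protein-coding genes with such counts. They are named here after their values were seen. The spindle checkpoint kinase Bub1b was higher in replicate 1, at 485 and 232 counts in replicates 1 and 2 (log2 ratio 0.78, counting interval 0.55 to 1.02). Cdc25c, a phosphatase that activates Cdk1, had too few counts for that rule, at 69 in replicate 1 and 15 in replicate 2 (log2 ratio 1.80, counting interval 1.10 to 2.83). The remaining 4 were lower in replicate 1: Cdkn1a (-0.66, 19.2 and 27.2 TPM), the cyclin-dependent kinase inhibitor p21; Neurog2 (-0.85, 53 and 80 counts); Rarres2 (-0.97, 173 and 281 counts); and Hba-a1 (-0.82), whose reads are shared with its copy Hba-a2.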
